A study of Mus musculus with 20 samples.

Results

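LHX6 had 1651 binding peaks in wild-type basal ganglia, and 284 of them lay in chromatin carrying an active mark but overlapped no NKX2-1 peak. These 284 LHX6-only active peaks were chosen by overlap. They shared no base with an NKX2-1 peak, and they shared at least 1 base with a wild-type region of H3K27ac, a mark of active promoters and enhancers, or of H3K4me1, a mark of enhancers. The other LHX6 peaks were 517 peaks shared with NKX2-1 in marked chromatin, 346 LHX6-only peaks outside both marks and 504 shared peaks outside both marks.

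The study precipitated histone marks from medial ganglionic eminence (MGE) of C57BL/6 mouse embryos at embryonic day 13.5, from Nkx2-1cKO embryos (a conditional Nkx2-1 knockout, called the mutant here) and from wild type. LHX6 and NKX2-1 were precipitated from basal ganglia of wild-type CD-1 embryos of the same age, so the peaks and the marks came from different strains and dissections. The labels used here do not give the Cre driver, the number of embryos per library or the cells in which Nkx2-1 was deleted. Each antibody and genotype had 1 library, so differences between genotypes describe these libraries and carry no p-value.

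LHX6 is a LIM homeodomain transcription factor of postmitotic MGE neurons, the cells that become cortical and striatal interneurons, and it is known to be required for their migration and for parvalbumin and somatostatin subtypes. NKX2-1 is the homeodomain factor that gives the MGE its identity and acts upstream of Lhx6. Homeodomains bind short sequences built around an A and T core, and active enhancers are usually flanked by nucleosomes carrying H3K27ac and H3K4me1.

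Windows of 200 bases around the summits of 4 members whose wild-type H3K27ac region had no counterpart in the mutant are printed to show what such cores look like at LHX6 summits, each named by a nearby gene. All windows printed were chosen among those that hold the LIM core, so they do not show how often it occurs. They are on the plus strand of build mm9 (NCBIM37). Capitals mark the words TAATTA and TAATGA, the LIM homeodomain core used here, and the words TAATCA and CAATCA, in either orientation.
Cacng3, chr7:129937370-129937569: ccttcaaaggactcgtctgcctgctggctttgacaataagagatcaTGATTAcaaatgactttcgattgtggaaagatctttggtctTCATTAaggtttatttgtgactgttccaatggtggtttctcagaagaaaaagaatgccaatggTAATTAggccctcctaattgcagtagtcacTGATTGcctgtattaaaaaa
Gbx1 and Agap3, chr5:24003496-24003695: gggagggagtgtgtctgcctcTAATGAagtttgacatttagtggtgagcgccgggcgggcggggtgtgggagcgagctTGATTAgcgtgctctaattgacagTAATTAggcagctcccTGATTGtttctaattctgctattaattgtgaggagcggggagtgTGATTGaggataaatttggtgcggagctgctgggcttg
Kcnc2, chr10:111814449-111814648: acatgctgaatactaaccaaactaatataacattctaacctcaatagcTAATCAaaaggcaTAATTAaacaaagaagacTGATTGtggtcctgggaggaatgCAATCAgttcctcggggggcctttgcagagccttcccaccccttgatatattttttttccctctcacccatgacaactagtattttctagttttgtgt
Kcnmb2, chr3:32046808-32047007: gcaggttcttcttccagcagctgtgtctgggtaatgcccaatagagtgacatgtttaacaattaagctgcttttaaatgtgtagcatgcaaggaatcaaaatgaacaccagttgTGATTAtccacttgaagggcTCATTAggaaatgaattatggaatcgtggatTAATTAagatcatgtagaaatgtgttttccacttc

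The next set holds 2 members that kept H3K27ac in the mutant (Bcl11b, Slc7a11) and 2 with an H3K27me3 region in the mutant alone (Agap1, and an intron of Fgfr2), with the same words in capitals.
Bcl11b, chr12:109208412-109208611: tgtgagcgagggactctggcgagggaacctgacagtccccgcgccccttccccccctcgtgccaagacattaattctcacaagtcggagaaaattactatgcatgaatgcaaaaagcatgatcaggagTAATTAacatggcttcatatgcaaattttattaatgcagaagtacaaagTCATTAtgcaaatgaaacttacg
Slc7a11, chr3:50438471-50438670: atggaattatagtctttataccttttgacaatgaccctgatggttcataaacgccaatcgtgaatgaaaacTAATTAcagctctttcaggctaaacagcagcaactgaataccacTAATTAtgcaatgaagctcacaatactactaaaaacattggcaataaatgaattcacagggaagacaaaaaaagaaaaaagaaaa
Agap1, chr1:91571313-91571512: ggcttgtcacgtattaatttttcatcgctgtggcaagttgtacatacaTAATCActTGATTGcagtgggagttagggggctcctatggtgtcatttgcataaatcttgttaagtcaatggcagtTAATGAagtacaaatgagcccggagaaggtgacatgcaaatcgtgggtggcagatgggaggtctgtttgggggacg
Fgfr2, chr7:138843842-138844041: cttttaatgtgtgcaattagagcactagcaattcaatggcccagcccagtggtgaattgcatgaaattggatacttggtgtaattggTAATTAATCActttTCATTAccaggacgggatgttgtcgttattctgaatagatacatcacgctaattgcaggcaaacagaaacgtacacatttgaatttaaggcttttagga

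The LIM core occurred in 167 of the 284 member windows (58.8%, exact 95% Clopper-Pearson interval 52.8% to 64.6%). Such intervals, here and below, cover counting error only. The core was in 18.5% of the 568 windows placed 1 kb to each side of the same summits, in 41.5% of all LHX6 peaks and in 10.9% of the centres of all 62591 wild-type H3K27ac regions. Shared active peaks held it in 50.9% of windows and LHX6-only unmarked peaks in 41%. The difference between classes was not tested.

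The words lay close to the point of strongest LHX6 signal. Per 100 members, 29.2 core words were centred in the 50 bases before the summit and 25.7 in the 50 bases after it. The bins that start 300, 250 and 200 bases before it held 10.2, 5.99 and 9.15. A single core word was found in 98 members, 2 in 47, 3 in 18 and 4 in 4, while 117 members held none. TAATTA, a palindrome, occurred in 37.7% of members and in 6.69% of side windows. TAATGA occurred in 37% of members and in 12.9% of side windows.

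Among all 2080 words of 6 bases, the largest excess of members over their side windows was that of TAATCA (reverse complement TGATTA), which is not part of the core searched. It occurred in 162 members (57%), in 10.6% of side windows and in 5.79% of the centres of wild-type H3K27ac regions without H3K4me3. Next was AATCAG, which shares AATCA with it, in 157 members (55.3%) against 10.6% of side windows. CAATCA (reverse complement TGATTG) came after that, in 140 members (49.3%) against 7.39% of side windows. TAATCA and CAATCA were chosen after the windows were seen, so their excess in the members is a description. At least 1 of them was in 231 members (81.3%), in 61.7% of shared active peaks, in 50.3% of LHX6-only unmarked peaks and in 17.1% of side windows. Together with the core they left 21 members with none of the 4 words.

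Words linked to other factors were searched in the same windows. The octamer of POU factors (ATGCAAA or ATGCTAA) was in 25% of members and 7.92% of side windows, and in 18.2% of shared active peaks. The E-box of neuronal bHLH factors (CAGCTG or CAGATG) was in 36.3% of members and 22.4% of side windows. It was also in 34.8% of shared active peaks and 33.1% of the centres of wild-type H3K27ac regions without H3K4me3. TAATTG, a core of DLX-type homeodomains that can overlap a LIM core word by some of its letters, was in 40.1% of members and 9.33% of side windows, a share of members above that of TAATTA or of TAATGA alone. The NK2 core (CACTTGA or CACTCAA), the type of word bound by NKX2-1, was in 6.69% of members, 12.6% of shared active peaks and 4.23% of side windows. The SOX core (ACAATG or ACAAAG) was in 38.4% of members and 26.2% of side windows, and the MEIS core (TGACAG) in 17.3% and 12%. In shared active peaks the SOX and MEIS cores were in 30.2% and 19.1%. At the centres of wild-type H3K27ac regions without H3K4me3 they were in 31.4% and 17.6%. AP-1 (TGANTCA), FOX (TGTTTAC), the GC box (GGGCGG) and a closely spaced inverted pair of TAAT words were in 7.04%, 2.82%, 1.76% and 1.76% of members. In side windows they were in 7.22%, 2.46%, 2.46% and 0.352%. Each word was searched on both strands, and a match does not show binding.

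**Figure D1:**
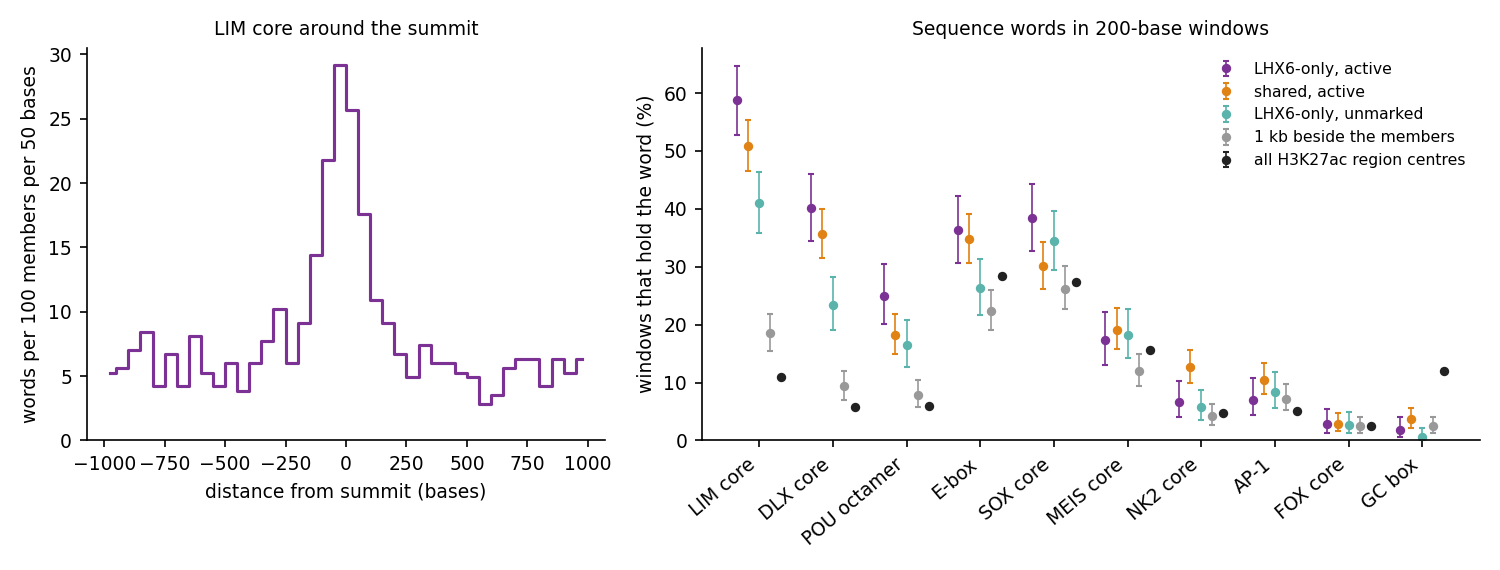
Left, LIM core words per 100 members in bins of 50 bases, by distance from the LHX6 summit. Right, share of 200-base windows that hold each word, with exact 95% intervals, for LHX6-only active peaks, shared active peaks, LHX6-only unmarked peaks, windows 1 kb beside the members and centres of all wild-type H3K27ac regions. The LIM core peaks at the summit and is in 58.8% of member windows against 18.5% of the windows beside them.

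Member windows were A and T rich, with a median of 39.5% G and C against 44% in the side windows and 51% at H3K27ac centres. The members lay mostly far from promoters. Only 9 (3.17%) were within 2.5 kb of a transcription start site (TSS) of a protein-coding gene, 118 (41.5%) were in introns, 3 in exons and 154 (54.2%) between genes. Their median distance to a TSS was 76.3 kb, against 55.6 kb for shared active peaks and 14.4 kb for NKX2-1-only peaks in marked chromatin, and 35.7% of NKX2-1-only active peaks were within 2.5 kb of a TSS. In the LHX6 list the authors' fold enrichment over input had a median of 5.02 over the members, with a range of 2.7 to 16. Of the members, 11 had an NKX2-1 peak within 1 kb, 88 had one within 50 kb, and 7 shared a wild-type H3K27ac region with one.

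The rule admitted partial overlaps. At most 50% of the peak lay inside a region of either mark at 106 members, with 1 base as the least, and the whole peak did at 114. Just outside the rule, 78 unmarked LHX6-only peaks lay within 1 kb of a marked region, the nearest at 1 base. The closest NKX2-1 peak to a member was 29 bases away.

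By H3K27ac, the tissue showed its own markers. At least 1 TSS of Gad1, a GABA synthesis enzyme, and of Dlx1, a subpallial homeobox gene, had all 2001 bases within 1 kb covered by H3K27ac in both genotypes. The same windows of the pallial genes Tbr1, Neurod6 and Emx1 and of the endothelial genes Pecam1 and Cldn5 had 0 bases covered in either genotype. The other marks separated these genes less clearly. H3K27me3 covered up to 2001 bases at Gad1 and at Tbr1 in both genotypes. H3K4me3 covered up to 1736 bases in the mutant and 1078 in wild type at Tbr1. Over the TSSs of Lhx6 itself, H3K27ac covered at most 781 bases in the mutant and 2001 in wild type, and at Lhx8, a LIM homeobox gene of the MGE, 753 bases in the mutant and 2001 in wild type. At Nkx2-1 it covered 2001 bases in both genotypes, which is no check of a conditional deletion of unknown extent. In dissected tissue, fewer cells of a type and less mark per cell cannot be told apart.

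Counted by an overlap of at least 1 base, H3K27ac was the mark that differed most at the members. It overlapped 146 members in the mutant (51.4%, 45.4% to 57.4%) and 230 in wild type (81%, 75.9% to 85.4%). H3K4me1 overlapped 212 members in the mutant (74.6%, 69.2% to 79.6%) and 247 in wild type (87%, 82.5% to 90.7%). H3K4me3, a promoter mark, overlapped 103 members in the mutant (36.3%) and 105 in wild type (37%). H3K27me3, the mark of Polycomb repression, overlapped 12 members in the mutant (4.23%) and 8 in wild type (2.82%). Because the rule required H3K27ac or H3K4me1 in wild type and asked nothing of the mutant, the differences in those 2 marks are a description. A region that is absent here is one that the authors' peak caller did not report.

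**Figure D2:**
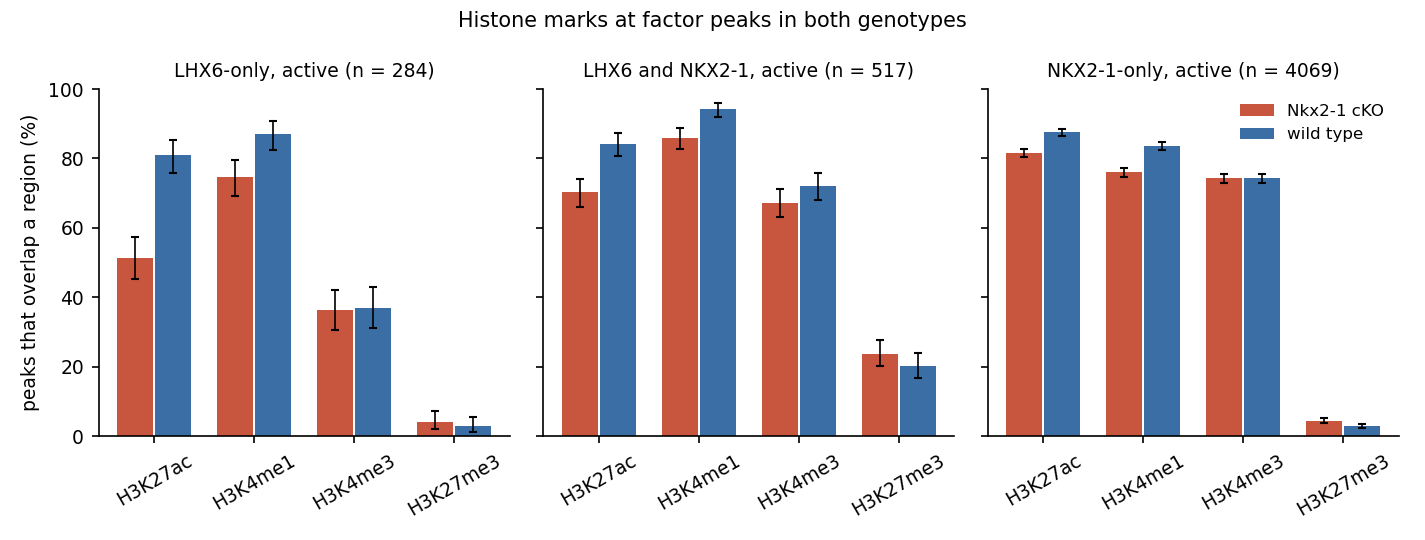
Share of peaks that overlap a region of each mark, in Nkx2-1cKO MGE and in wild-type MGE, for LHX6-only active peaks, shared active peaks and NKX2-1-only active peaks. Error bars are exact 95% intervals for counting error in 1 library per bar. H3K27ac overlaps 51.4% of LHX6-only active peaks in the mutant and 81% in wild type.

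Of the 230 members with wild-type H3K27ac, 94 had no H3K27ac region in the mutant (40.9%, 34.5% to 47.5%), and 10 members had one in the mutant alone. Counted by region, 102 of the 268 wild-type H3K27ac regions that held a member were absent from the mutant (38.1%, 32.2% to 44.2%), against 19.4% of all 62591 wild-type H3K27ac regions. The share was 18.2% of the 528 regions that held a shared active peak and 9.3% of the 3882 that held an NKX2-1-only active peak. For H3K4me1, 46 of 247 members lost it (18.6%), and 50 of the 264 regions that held a member were absent from the mutant (18.9%), against 15.2% of all wild-type H3K4me1 regions. The part of the lower acetylation at the Lhx6 promoter in these losses was not tested.

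The share that lost H3K27ac differed by the presence of H3K4me3. Of the members, 163 had no H3K4me3 in either genotype, whereas 120 of the 517 shared active peaks had none. Only 8 of the 121 members with H3K4me3 lay within 2.5 kb of a protein-coding TSS, so the split does not separate promoters from distal sites. The groups also differed in strength. Wild-type H3K27ac regions had a median −log10 p of 34.4 at members with H3K4me3 and 21.3 at those without. Among members without H3K4me3, H3K27ac was absent from the mutant at 77 of 121 (63.6%, 54.4% to 72.2%), and among those with H3K4me3 at 17 of 109 (15.6%, 9.36% to 23.8%). Shared active peaks without H3K4me3 had a share of 56.2%, or 41 of 73, whose interval of 44.1% to 67.8% overlaps that of the members. By region without H3K4me3, 84 of 141 that held a member were absent from the mutant (59.6%, 51% to 67.7%), against 40.3% of all such regions, 54.9% of those with a shared active peak and 43.8% of those with an NKX2-1-only active peak. H3K4me1 was absent from the mutant at 45 of 137 members without H3K4me3 (32.8%) and at 1 of 110 with it. By region without H3K4me3, 48 of 146 H3K4me1 regions that held a member were absent from the mutant (32.9%), against 27.1% of all such regions.

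Over all regions without H3K4me3, and over those that held a member, weak regions were absent from the mutant more often than strong ones. Within each bin of strength the share was higher for regions with a member than for all regions. At an authors' −log10 p below 10 in wild type, 15 of 15 regions with a member were absent from the mutant, against 51.5% of all regions. At a −log10 p of 10 to 20, 42 of 65 regions with a member were absent from the mutant (64.6%, 51.8% to 76.1%), against 33.4% of all regions. At 20 to 40 it was 20 of 40 regions (50%, 33.8% to 66.2%), against 15.1%. Above 40 it was 7 of 21 (33.3%, 14.6% to 57%), against 5.01%. For regions with a shared active peak the share was 5 of 11 below 10 (45.5%, 16.7% to 76.6%), whose interval lay below the lower bound of 78.2% for the members. It was 81.8%, 53.8% and 19% in the bins from 10 upward, where the intervals overlapped those of the members. For regions with an NKX2-1-only active peak the share was 66.3%, 57.3%, 27.3% and 3.12% from the weakest bin to the strongest. It was above that of all regions in every bin but the strongest. Its intervals overlapped those of the members at 10 to 20 and at 20 to 40 and lay below them in the other bins. These comparisons have no replicate and were not tested.

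**Figure D3:**
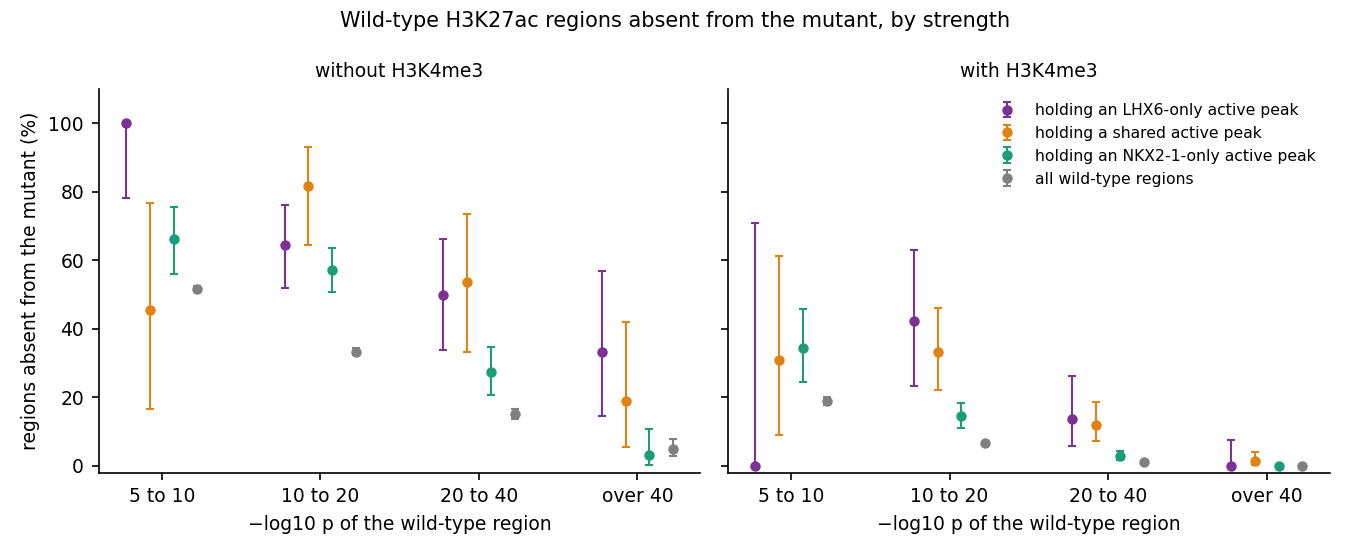
Share of wild-type H3K27ac regions absent from the mutant, by the authors' −log10 p of the wild-type region, for regions without H3K4me3 (left) and with it (right). Points are shares with exact 95% intervals for regions holding an LHX6-only, a shared or an NKX2-1-only active peak and for all wild-type regions; without H3K4me3 at 20 to 40, the share is 50% with an LHX6-only peak and 15.1% over all regions.

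The share that lost H3K27ac was set against traits of the LHX6 peak. The share lost was 41.5% with the LIM core in the window and 40% without it, and 41.3%, 36.6% and 44% in members of the weakest, middle and strongest LHX6 −log10 p. It was 43.1% with the octamer and 40.2% without it, and 45.6% in introns, 39.2% between genes and 12.5% (1 of 8) within 2.5 kb of a TSS. It was 28.6% (2 of 7) where an NKX2-1 peak lay in the same H3K27ac region and 41.3% elsewhere. In each of these comparisons the intervals overlapped, and those of the small groups were wide. The loss of H3K4me1 was 10.6%, 21.6% and 24.3% in members of the weakest, middle and strongest LHX6 peaks, with intervals that also overlapped. Members that lost H3K27ac had a median −log10 p of 18.1 for the wild-type H3K27ac region, and those that kept it 34.4.

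The marks were often lost singly. Of 193 members with both H3K27ac and H3K4me1 in wild type, 117 had both in the mutant (60.6%), 41 had H3K4me1 alone (21.2%), 29 had neither (15%) and 6 had H3K27ac alone. Of 37 with H3K27ac alone in wild type, 20 had neither mark in the mutant (54.1%). Of 54 with H3K4me1 alone in wild type, 33 were the same in the mutant, 11 had neither and 10 had gained H3K27ac.

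Measured as length, H3K27ac covered on average 635 of the 2001 bases around a member's summit in the mutant and 1075 in wild type, a ratio of 0.591. The whole H3K27ac list ran the other way, with 63.7 Mb covered in the mutant and 57 Mb in wild type, a ratio of 1.12. That list is not a like comparison, because the rule required an active mark in wild type alone and so favours a ratio below that of the list. Acetylated length was smaller in the mutant at 208 members (73.2%), larger at 48 and equal at 28, and 94 members had 0 acetylated bases in the mutant alone. At least 1 kb was lost in the mutant at 45 members and gained at 1. Without H3K4me3 the mean was 344 bases in the mutant and 904 in wild type (ratio 0.381). With H3K4me3 it was 1027 bases in the mutant and 1305 in wild type (ratio 0.787). The ratio was 0.791 at shared active peaks and 0.41 at those without H3K4me3. At NKX2-1-only active peaks, which also required an active mark in wild type, it was 0.935, and 0.606 at those without H3K4me3. H3K4me1 averaged 827 bases in the mutant and 1038 in wild type at the members (ratio 0.797), while H3K4me3 averaged 366 and 362 bases in the mutant and wild type.

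**Figure D4:**
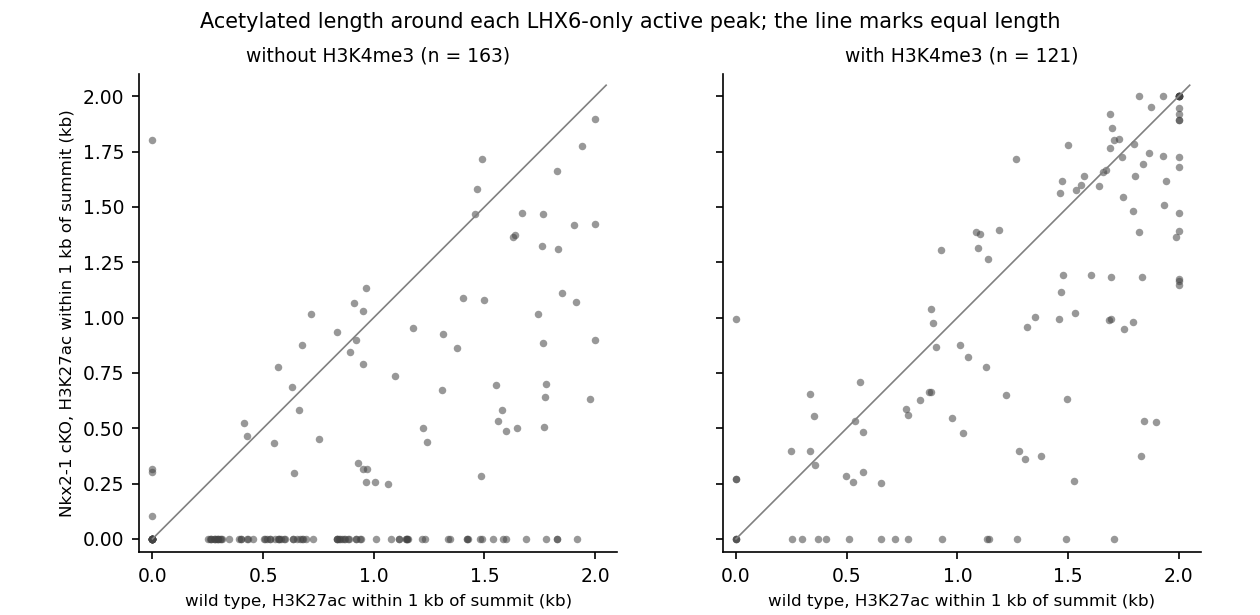
Bases covered by H3K27ac within 1 kb of the LHX6 summit for each of the 284 members, in kb, in Nkx2-1cKO MGE (vertical axis) and in wild-type MGE (horizontal axis), for members without and with H3K4me3. Each point is 1 member and the line marks equal length; 208 members lie below it, and 94 lie at 0 in the mutant and above 0 in wild type.

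The shape of the marks around the summit also differed between genotypes. In wild type, H3K27ac formed a pair of shoulders with a gap at the LHX6 summit, whereas in the mutant the profile was nearly flat across it. In the mutant the share of members covered was 38.7% at 300 bases before the summit, 35.6% at the summit and 39.1% at 300 bases after it. In wild type it was 64.4%, 36.6% and 65.1% at the same points. H3K4me1 was highest at the summit itself in the mutant (51.4%, 63.7% and 54.6%) and dipped there in wild type (64.8%, 53.2% and 67.3%). At the summit, H3K27ac was thus nearly equal in the genotypes and H3K4me1 was higher in the mutant, although both were lower in the mutant on the flanks. The H3K4me1 library was deeper in the mutant, with 69 M tags against 59.7 M in wild type. Its whole list covered 83.8 Mb in the mutant and 76.5 Mb in wild type. The rule required a wild-type region that touched each peak and asked nothing of the mutant, so it favours wild-type coverage beside the summit. The part of this in the difference in shape was not tested.

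The gap can be counted by member. Where H3K27ac regions lay between 100 and 500 bases on both sides, the summit base itself was outside any region at 18 of 105 members in the mutant (17.1%, 10.5% to 25.7%) and at 77 of 173 in wild type (44.5%, 37% to 52.2%). For H3K4me1 it was 11 of 166 members in the mutant (6.63%, 3.35% to 11.5%) and 48 of 186 in wild type (25.8%, 19.7% to 32.7%). Members without H3K4me3 had such an H3K27ac gap at 10 of 30 in the mutant and 55 of 86 in wild type. Shared active peaks had it at 11.2% in the mutant and 23.4% in wild type, and NKX2-1-only active peaks at 10.3% in the mutant and 14.3% in wild type. The count was made after the profile was seen and has no replicate. The comparison also depended on how overlap was counted. When a single region had to cover at least 50% of the peak, H3K27ac was at 35.9% of members in the mutant and 36.6% in wild type. H3K4me1 was then at 63.4% in the mutant and 52.1% in wild type, which turns its direction. The part of the gap in this was not tested.

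**Figure D5:**
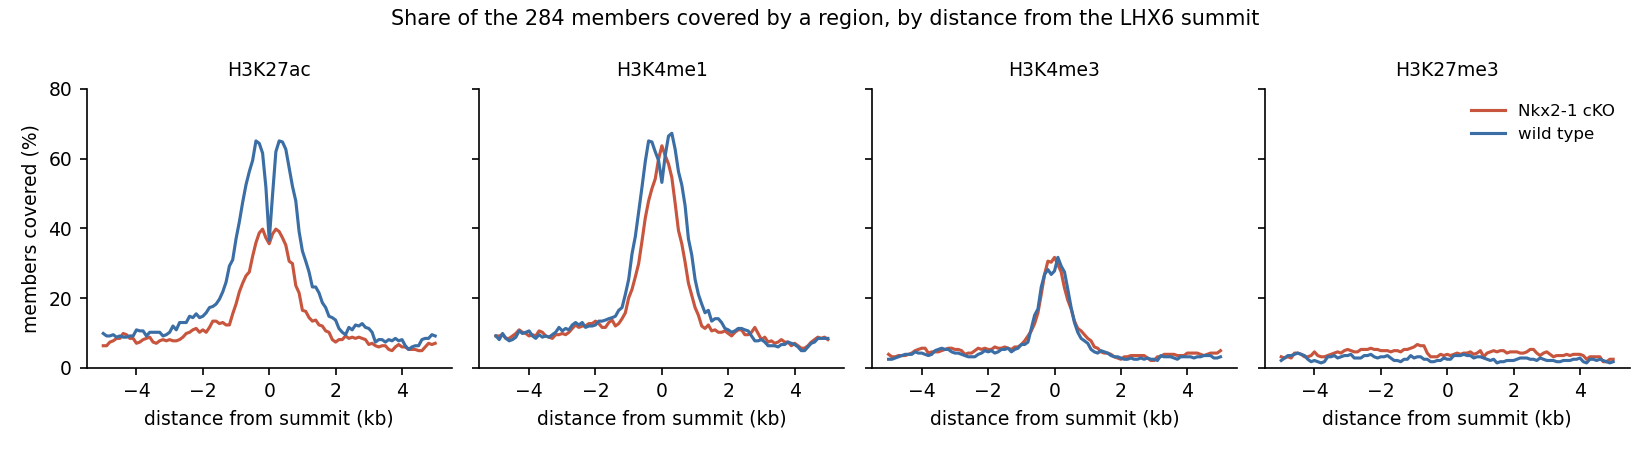
Share of the 284 members covered by a region of each mark, by distance from the LHX6 summit, in Nkx2-1cKO MGE and wild-type MGE, each from 1 library. In wild type H3K27ac reaches 64.4% and 65.1% at 300 bases to either side and 36.6% at the summit, while the mutant is at 38.7% and 39.1% at 300 bases and at 35.6% at the summit.

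H3K4me3 and H3K27me3 differed at fewer members. H3K4me3 was in the mutant alone at 16 members and in wild type alone at 18. By region, 17 of the 109 wild-type H3K4me3 regions that held a member were absent from the mutant (15.6%), against 3.65% of all. The share was 15.2% of the 408 regions that held a shared active peak and 5.52% of those with an NKX2-1-only active peak. Wild-type H3K4me3 regions had a median −log10 p of 12.6 at members that lost the mark and 23.1 at those that kept it. Of 103 mutant H3K4me3 regions that held a member, 15 were absent from wild type (14.6%), against 28.1% of all. H3K27me3 was in the mutant alone at 4 members and in wild type alone at 0, and 2 of the 12 mutant H3K27me3 regions with a member were absent from wild type, against 46.6% of all mutant regions. Of 10 wild-type H3K27me3 regions with a member, 1 was absent from the mutant, against 15.7% of all. Of 158 mutant H3K27ac regions with a member, 6 were absent from wild type (3.8%), against 29.6% of all, a low share that the rule favours because it required an active mark in wild type.

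The strongest LHX6-only active peaks included members with and without H3K27ac in the mutant. The authors' −log10 p of the 12 strongest ran up to 107, and 3 of them had no H3K27ac region in the mutant. The strongest lay far from any protein-coding TSS, 1089 kb from that of Mat2b. Its acetylated length was 1304 bases in the mutant and 928 in wild type. The next, 122 kb from Cacng3, which encodes an auxiliary subunit of AMPA-type glutamate receptors, had 0 acetylated bases in the mutant and 1826 in wild type, and its H3K4me1 covered 548 bases in the mutant and 1300 in wild type. Its 200-base window, printed first above, held 2 LIM core words. A peak 51.4 kb from Trat1 had 0 acetylated bases in the mutant and 726 in wild type, and one in an intron of Exoc4, an exocyst subunit, had 0 in the mutant and 835 in wild type.

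Others of the strongest kept the mark. The peak 127 kb from Mitf, a bHLH transcription factor gene, had 559 acetylated bases in the mutant and 778 in wild type, with H3K27me3 on 475 bases in the mutant and 0 in wild type. At the peak 191 kb from Slc7a11, a cystine and glutamate exchanger, acetylation covered 778 bases in the mutant and 1131 in wild type. The peak 0.177 kb from a TSS of Fam65b had 1389 acetylated bases in the mutant and 1822 in wild type, and H3K4me3 on 301 bases in the mutant and 1291 in wild type. One in an intron of Tmem108 had 1682 acetylated bases in the mutant and 2001 in wild type, and one 306 kb from Agtpbp1 had 2001 in both genotypes. The peaks 75.2 kb from 1700012B07Rik and 507 kb from BC002059 had 662 and 481 acetylated bases in the mutant, against 880 and 573 in wild type.

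Neuropeptide Y marks a class of interneurons, and 2 members lay nearest to Npy. The stronger, 77.3 kb away at chr6:49695246-49695660, had an authors' fold of 9.65. Its acetylated length was 505 bases in the mutant and 1771 in wild type, and its H3K4me1 844 bases in the mutant and 1687 in wild type. The other, 52.5 kb away, had 1148 acetylated bases in the mutant and 2001 in wild type. Both kept a called H3K27ac region, so they are not among the 94 lost.

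The 8 members with the strongest wild-type H3K27ac regions among those lost include the Cacng3 peak. In an intron of Kcnc2, which encodes a Kv3 potassium channel of fast-spiking interneurons, the peak at chr10:111814390-111814722 had 0 acetylated bases in the mutant and 1598 in wild type. A second peak nearest to Kcnc2, 301 kb from a TSS, is not among these 8 and was chosen after its values were seen. It had 0 acetylated bases in the mutant and 1424 in wild type, with no H3K4me1 in either. An intron of Kirrel3, an adhesion molecule, had 499 acetylated bases in the mutant and 1648 in wild type. The peak 43.8 kb from Rtp4 had 0 in the mutant and 1421 in wild type, and the longest wild-type stretch of this set, 1829 bases against 0 in the mutant, was in an intron of Agap3, an Arf GTPase-activating protein gene, 29.5 kb from Gbx1. Peaks in introns of Asb18 and Dpys and 63.2 kb from Epb4.1l4a lost the region at the peak but kept 698, 1088 and 262 acetylated bases within 1 kb in the mutant, against 1780, 1405 and 1529 in wild type. The Agap3 and Asb18 peaks shared their wild-type H3K27ac region with an NKX2-1 peak, the nearest 2221 and 1411 bases away.

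The 8 members with the strongest wild-type H3K27ac regions among those kept all carried H3K4me3 in both genotypes. The member in an intron of Lmo3, a LIM-only cofactor, 1.4 kb from a TSS, had 1785 acetylated bases in the mutant and 1798 in wild type. The members in introns of Gm5607 and Mpnd had 2001 and 1949 in the mutant, against 2001 in wild type at each, and that 158 kb from Tmem161b had 1657 in the mutant and 1660 in wild type. A pair near Zfp608, at 47.6 and 48.8 kb, had 948 and 1473 in the mutant, against 1755 and 2001 in wild type. The members at Lmo3, Gm5607, Tmem161b and Zfp608 shared their wild-type H3K27ac region with an NKX2-1 peak. The nearest NKX2-1 peak lay 426, 7201 and 563 bases from the members at Lmo3, Gm5607 and Tmem161b. It lay 257 and 234 bases from the pair near Zfp608.

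Genes with a member within 50 kb of a TSS made up 0.698% of all 22208 protein-coding genes, or 155. In the list of MGE and LHX6-program transcription factors it was 3 of 36, Gbx1, Lmo3 and Tcf4. Gbx1, a homeobox gene of ventral forebrain neurons, lay near the member at chr5:24003465-24003716, which had H3K4me1 on 665 bases in the mutant and 2001 in wild type beside its loss of acetylation. Tcf4, a bHLH partner of proneural factors, had a member in an intron with 1192 acetylated bases in the mutant and 1602 in wild type. Between 50 and 100 kb the list added Gbx2, Lmo4 and Nkx2-1, for 6 of 36 within 100 kb, against 1.43% of all genes.

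In the list of interneuron migration, GABA and subtype genes, 3 of 40 had a member within 50 kb. Kcnmb2, a subunit of large-conductance calcium-activated potassium channels, had one in an intron with 0 acetylated bases in the mutant and 401 in wild type, and 0 and 423 bases of H3K4me1 in the mutant and wild type. Cntnap2, an axonal cell adhesion gene, had one in an intron with 1802 acetylated bases in the mutant and 1710 in wild type. Beyond 50 kb, and so outside the naming rule, the chemokine receptor gene Cxcr4 had a member 59.4 kb away. It had 0 acetylated bases in the mutant and 637 in wild type, but its H3K4me1 covered 495 bases in the mutant and 407 in wild type.

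In the list of LGE, CGE and striatal genes, 2 of 26 had a member within 50 kb, Foxp2 and Bcl11b. The Foxp2 member had no H3K27ac region in wild type and so had none to lose, and the Bcl11b member kept its region. In an intron of Foxp2, a forkhead factor of striatal neurons, acetylation covered 995 bases in the mutant and 0 in wild type, and H3K4me3 covered 1609 bases in the mutant and 890 in wild type. In an intron of Bcl11b, a zinc finger factor of striatal neurons, it covered 2001 bases in both genotypes. The cholinergic list had 1 of 10 (Gbx1), the LIM homeobox and LIM cofactor list 2 of 20 (Lmo3 and Ssbp3), and the adhesion and axon guidance list 1 of 27 (Epha3). At Ssbp3, a partner of the LIM-domain binding protein LDB1, H3K27ac covered 102 bases in the mutant and 0 in wild type, and H3K4me1 1764 bases in the mutant and 1593 in wild type. At Epha3, an ephrin receptor, acetylation covered 709 bases in the mutant and 559 in wild type. The lists of progenitor and cell cycle genes (18), pallial glutamatergic genes (14), endothelial, mural, blood and microglial genes (16) and housekeeping genes (12) had 0. Lists overlap in members, no list was tested, and most members lay too far from any protein-coding TSS to count here.

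Of the 10 members with H3K27ac in the mutant alone, the 8 with the strongest mutant region are named. Besides Foxp2, an intron of Btbd9 had 1804 acetylated bases in the mutant and 0 in wild type, the sole gain of at least 1 kb. Members near Nedd4l and Sntb1 had 315 and 304 in the mutant, against 0 in wild type at each. Those nearest to March11, Thap1, Tshz3 and Rapgef5 had 654, 396, 1030 and 791 in the mutant, against 333, 333, 953 and 950 in wild type, so that acetylation was already present beside the peak.

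H3K27me3 appeared in the mutant alone at 4 members. In an intron of Agap1, which encodes an Arf GTPase-activating protein, H3K27me3 covered 1878 bases in the mutant and 1101 in wild type within 1 kb, while H3K27ac covered 0 bases in the mutant and 1487 in wild type. In an intron of Fgfr2, a fibroblast growth factor receptor, at chr7:138843758-138844120, H3K27me3 covered 2001 bases in the mutant and 920 in wild type, with no H3K27ac in either. The members 139 kb from Gm2574 and 132 kb from Plk1s1 had 910 and 1238 bases in the mutant, against 0 in wild type, and kept 1004 and 1362 acetylated bases in the mutant, against 1350 and 1987 in wild type. At 9 members acetylated length was smaller and H3K27me3 length larger in the mutant. Over all 284 members, acetylated length was smaller in the mutant at 208 (73.2%) and H3K27me3 length was larger at 18. A link between these changes was not tested.

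Genes nearest to at least 3 members were few, and these and the pairs that follow were chosen after their values were seen. Tshz3, a zinc finger factor gene, was nearest to 4. The member 61.1 kb away had 0 acetylated bases in the mutant and 582 in wild type, and those 194 and 221 kb away had 1669 and 959 in the mutant, against 1670 and 1314 in wild type. Agap1 was nearest to 3, of which 2 had wild-type H3K27ac and 0 kept it. Tle4, a Groucho-type corepressor, was nearest to 3, of which 3 had H3K27ac in wild type and 1 in the mutant. Tle4 is on the list of LGE, CGE and striatal genes but had no member within 100 kb, so it was not counted there.

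Pairs of members with the same nearest gene numbered 20. Both members of Ptprd, a receptor tyrosine phosphatase, lost the mark, with 0 acetylated bases in the mutant at each, against 654 and 532 in wild type. Both members of Ctbp2, a corepressor, had no H3K27ac region at the peak in the mutant, with 528 and 0 acetylated bases within 1 kb, against 1899 and 834 in wild type. Both members of Cxcr7, a chemokine receptor of migrating interneurons, kept a region but had 897 and 863 acetylated bases in the mutant, against 2001 and 1377 in wild type. Of the pair nearest to Nkx2-1, the member 95.5 kb away had 639 acetylated bases in the mutant and 1776 in wild type, and the member 78 kb away had 1562 in the mutant and 1466 in wild type, with H3K27me3 on 1595 bases in the mutant and 880 in wild type. Of the pair nearest to Robo1, an axon guidance receptor, one had 0 acetylated bases in the mutant and 779 in wild type and the other 1920 in the mutant and 1690 in wild type.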

How the data were processed

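Peak lists of 10 libraries of E13.5 mouse tissue were used, and 10 input or IgG libraries were not analysed here. The submitters' processing notes name bcl2fastq (1.8.4), CASAVA (1.8.2), the aligner BWA (0.6.2), the peak caller MACS2 (2.1.0) and genome build mm9. Per the file headers, the calls came from version 2.1.0.20140616 with an input control and a p-value limit of 1.0e-05. The headers add that neither a local background nor a fragment model was used, that tags were lengthened to 250 bases with 1 allowed at each position, and that summits were called separately. They name merged alignments and do not say what was merged. The deposited columns are the pileup (a signal of extended tags), −log10 p-value, −log10 q-value and fold enrichment, a ratio over control. The q-value column was left out, since the headers call q-values not calculated. The authors' fold and −log10 p serve to describe, rank or filter within a list. Depth after duplicate removal was 26.8 to 89.1 M tags per library, 55.9 M for H3K27ac in the mutant and 57.3 M in wild type.

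Rows with the same position were merged and chromosomes 1 to 19 and X kept. Overlaps of at least 1 base, covered lengths, distances and words were computed in Python 3.11.15 (pandas 2.3.3, numpy 2.4.6, pysam 0.24.0, scipy 1.17.1) with samtools 1.23.1. Overlap code was tested on simulated intervals against bedtools 2.31.1, and plots were made with matplotlib 3.10.9. The annotation was GENCODE vM1 on NCBIM37, and coordinates are counted from 1. The genes Ackr3 and Slc18a3 of the lists had no match. No test was run between genotypes.

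The members and the 10 gene lists were chosen with earlier results of these data known. Named are the 12 members with the highest LHX6 −log10 p, members within 50 kb of listed genes, the 8 with the highest wild-type H3K27ac −log10 p among those lost and among those kept, up to 8 with H3K27me3 or H3K27ac in the mutant alone, and sequences among these that hold the LIM core. No gene had 3 members within 100 kb. Values of 2 members that this rule names are not reported here. Alternatives were a larger overlap, a −log10 p of at least 8, distances of 1 kb, other windows and other gene sets.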

Additional observations from a re-analysis of the deposited data

How the results depend on the processing

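Of 72 alternative values for 18 results, 43 stayed within the counting interval of the reported value or within 1.5 times of a reported count, 28 moved and 1 reversed. There were 178 members with an overlap of at least 50%, and 174 when the summit had to lie inside the region. With marks covering at least 50% of the peak, H3K27ac was at 35.9% in the mutant and 36.6% in wild type (difference -0.704 percentage points, against -29.6), H3K4me1 at 63.4% in the mutant and 52.1% in wild type (difference 11.3 points, reversed from -12.3), H3K4me3 at 27.5% in wild type, and 27.9% of wild-type H3K27ac was lost. At a −log10 p of at least 8, H3K4me1 was at 68.7% in the mutant and 82.4% in wild type, with 24.4% lost. Within 1 kb of the peak, H3K27ac was at 59.5% in the mutant and 90.1% in wild type, H3K4me1 at 94.4% in wild type, and H3K27me3 at 8.45% in the mutant and 5.63% in wild type. Without H3K4me3, H3K27ac was at 31.3% in the mutant and 74.2% in wild type (difference -42.9 points; 63.6% lost), and H3K4me1 at 60.1% in the mutant (difference -23.9 points; 32.8% lost). A TSS lay within 100 kb of 57% of members, and one of any annotated gene within 50 kb of 52.1%, against 37%. The LIM core was in 40.8% of 100-base windows, and the added words were in 81.3% of windows. The cause of these shifts, that of the 50% overlap included, was not tested. No paired analysis was possible because each mark and genotype has 1 library. A weak region near the caller's threshold can be present in one library and missing from another by depth alone, which 1 library per group cannot show.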
